A study of Mus musculus with 6 samples.

Results

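Heparan sulfate is a long sulfated sugar chain attached to core proteins on the cell surface and in the matrix, and 10 genes that build, sulfate, trim or carry it are described here in mouse pancreatic tumour cells with knockdown of Pthlh. They were read from a deposited table of 24493 genes by symbol: the endosulfatases Sulf1 and Sulf2, the sulfotransferases Hs6st1, Hs6st2, Hs2st1 and Ndst1, the polymerase Ext1, and the core proteins Sdc1, Sdc4 and Gpc1. The set was chosen by the TPM of Sulf2 and Hs6st2, which were much lower in the knockdown cells than in the control cells, so their difference from control cells is given as a description, with no test. The other 8 genes entered through their roles in the pathway. Of the 10 genes, 9 passed the filter on low values, a level of at least 1 TPM (transcripts per 1e+06 transcripts, corrected for length) in at least 2 libraries, and Sulf1 did not.

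The chain is started on a short linker of sugars, extended by the paired polymerases Ext1 and Ext2, and then modified in the Golgi. Ndst enzymes replace acetyl groups with sulfate on the amino group of glucosamine, Hs2st1 sulfates the uronic acid, and the Hs6st and Hs3st enzymes sulfate other positions of glucosamine. After the chain has reached the cell surface, Sulf1 and Sulf2 remove 6-O-sulfates, so the Hs6st enzymes and the Sulf enzymes act on the same position in opposite directions. The pattern of sulfate groups sets which fibroblast growth factors, Wnt proteins and other ligands the chain binds, and in pancreatic cancer the glypican Gpc1 and the syndecan Sdc1 are well known as surface proteins of the tumour cells.

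RNA was sequenced from KPCY cells, tumour cells of the C57BL/6 strain from a model of mouse pancreatic cancer in which the tumour lineage carries a yellow fluorescent protein. They were given Pthlh hairpin 2 (shPthlh oligo #2, n = 2), Pthlh hairpin 1 (shPthlh oligo #1, n = 2) or the non-targeting hairpin shNT (n = 2), and Pthlh encodes the secreted parathyroid hormone-related protein. The design speaks of 2 parental clones, no label ties a hairpin or library to a clone, and so hairpin and clone cannot be told apart here. The labels call the cells sorted from tumours in vivo, while the protocols describe growth in DMEM and transduction, and no label says whether the replicates of a group are separate cultures or animals. The p-values therefore refer to the scatter among these 6 libraries alone, which may be technical.

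TPM keeps no read depth, so the depth of the libraries is unknown. Pthlh itself had 0.0423 and 0.263 TPM with hairpin 2, 0 and 0.106 TPM with hairpin 1, against 0.752 and 0.966 TPM with shNT. It did not pass the filter, and the 2 hairpins overlapped. Of 7 markers of tumour epithelium, 6 had at least 1 TPM in every library, with a summed level of 3759 to 4456 TPM, and Epcam was the exception. Markers of other cell types were at or near 0: 7 fibroblast markers summed to 0.286 to 0.522 TPM with Lum at 0 throughout, 6 endothelial markers summed to 6.01 to 8.05 TPM, nearly all from Egfl7, and 8 leukocyte markers summed to 1.41 to 2.91 TPM with Adgre1 and Cd3e at 0 throughout. In bulk RNA, fewer cells that express a gene and less RNA per cell cannot be told apart. The median tested gene was 0.10 higher on the log2 scale with the hairpins than with shNT, 0.01 higher after median-ratio scaling and 0.04 lower without small-RNA entries, and calls among small changes shifted with it.

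Of the 2 endosulfatases, only Sulf2 was detected. Sulf1 (chr1:12692277-12861192) was listed at 0 TPM in all 6 libraries. Sulf2 (chr2:166073089-166155663, minus strand, mm10) had 3.46 and 4.18 TPM with hairpin 2, 0.692 and 0.893 TPM with hairpin 1, against 15.1 and 13.9 TPM with shNT. The 3 groups were separate from each other, with hairpin 1 lowest and shNT highest. The means were 3.82 ± 0.508 TPM with hairpin 2, 0.793 ± 0.142 TPM with hairpin 1 and 14.5 ± 0.844 TPM with shNT (SD, n = 2 each), which put hairpin 2 at 26.2% and hairpin 1 at 5.45% of the shNT mean. On the log2(TPM + 1) scale, which understates changes at low levels, the difference from shNT was -1.69 for hairpin 2 and -3.12 for hairpin 1. The median tested gene of chromosome 2 differed from shNT by 0.01 with hairpin 2 and -0.27 with hairpin 1. The 3' ends of Sulf2 and Ncoa3 overlap in the annotation, and whether counting used the strand is not given in the sources used here; Ncoa3 differed from shNT by 0.17 with hairpin 2 and 0.02 with hairpin 1.

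The 6-O-sulfotransferases were carried by 2 genes, and they behaved differently. Hs6st2 (chrX:51387212-51681856, minus strand) had 10.3 and 10.7 TPM with hairpin 2, 1.92 and 1.66 TPM with hairpin 1, against 16.0 and 17.2 TPM with shNT. Here too the 3 groups did not overlap and hairpin 1 was lowest. The means of 10.5 ± 0.336 TPM with hairpin 2 and 1.79 ± 0.180 TPM with hairpin 1 stood at 63.2% and 10.8% of the shNT mean of 16.6 ± 0.861 TPM (SD, n = 2 each). The difference from shNT was -0.61 for hairpin 2 and -2.66 for hairpin 1 (log2), while the median tested gene of the X chromosome differed by 0.12 and 0.21. Hs6st1 (chr1:36068400-36106446, plus strand) had 30.8 and 31.5 TPM with hairpin 2, 30.9 and 34.7 TPM with hairpin 1, against 31.7 and 26.2 TPM with shNT, so the groups overlapped. Its difference from shNT did not pass the test with hairpin 2 (0.11, 95% interval -0.14 to 0.36, limma adjusted p = 0.484), and likewise not with hairpin 1 (0.18, 95% interval -0.07 to 0.43, limma adjusted p = 0.189). The call rests on shNT replicate 1: without it Hs6st1 was higher with the mean of both hairpins (limma adjusted p = 0.0370, range over 17 alternatives 0.0370 to 0.974) and so it was with hairpin 1 alone (limma adjusted p = 0.0244, range 0.0244 to 0.978). Hs6st3, the remaining gene of the family, stayed below the filter.

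**Figure D1:**
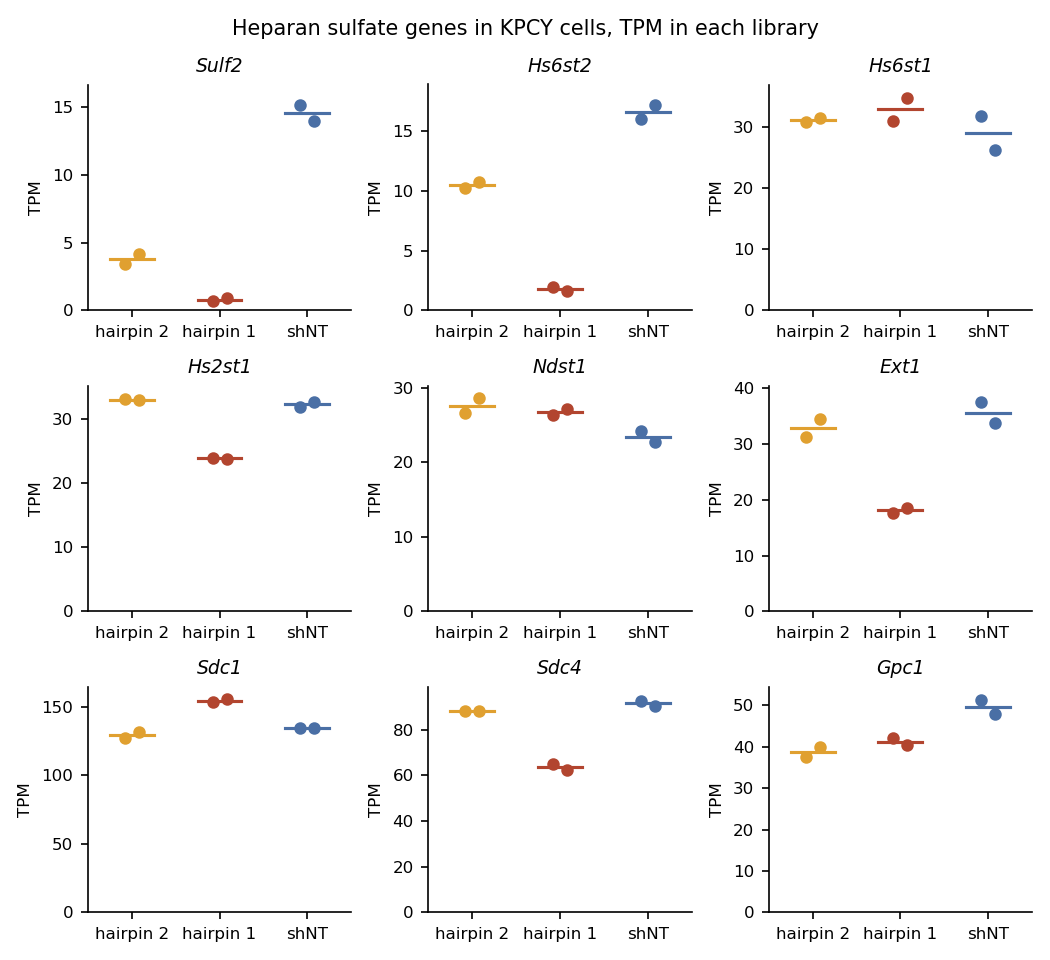
TPM of the 9 detected genes in each of the 6 libraries, 1 panel per gene with its own axis; points are libraries and the horizontal line is the group mean, with hairpin 2 left, hairpin 1 in the middle and shNT right. Sulf2 and Hs6st2 are lowest with hairpin 1 (0.692 to 0.893 and 1.66 to 1.92 TPM), and Ext1, Hs2st1 and Sdc4 are low with hairpin 1 alone.

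Because Sulf2 and Hs6st2 carried the largest differences, their promoters are shown beside that of Hs6st1, the paralog whose groups overlapped. The sequences are RefSeq promoters of build GRCm38.p6, 250 bases before to 50 bases after an annotated start, written 5' to 3' on the gene's strand. The gene-level TPM does not tell which of the 2 starts of Sulf2 or Hs6st2 was used. The capitals mark a match to the TEAD motif GGAATG on either strand.
Sulf2 promoter 1, chr2:166155634-166155933, minus strand: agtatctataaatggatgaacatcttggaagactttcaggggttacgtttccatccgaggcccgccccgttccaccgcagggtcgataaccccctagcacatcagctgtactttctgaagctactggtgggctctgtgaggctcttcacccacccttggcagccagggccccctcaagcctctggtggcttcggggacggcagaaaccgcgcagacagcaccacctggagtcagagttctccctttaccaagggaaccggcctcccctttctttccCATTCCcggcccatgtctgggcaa
Sulf2 promoter 2, chr2:166155236-166155535, minus strand: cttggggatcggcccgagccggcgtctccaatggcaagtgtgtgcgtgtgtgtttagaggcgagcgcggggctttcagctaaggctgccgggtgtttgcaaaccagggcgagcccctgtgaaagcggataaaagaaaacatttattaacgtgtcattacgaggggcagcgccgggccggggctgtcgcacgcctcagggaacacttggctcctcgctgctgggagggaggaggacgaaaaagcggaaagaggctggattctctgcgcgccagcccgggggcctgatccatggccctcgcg
Hs6st2 promoter 1, chrX:51681553-51681852, minus strand: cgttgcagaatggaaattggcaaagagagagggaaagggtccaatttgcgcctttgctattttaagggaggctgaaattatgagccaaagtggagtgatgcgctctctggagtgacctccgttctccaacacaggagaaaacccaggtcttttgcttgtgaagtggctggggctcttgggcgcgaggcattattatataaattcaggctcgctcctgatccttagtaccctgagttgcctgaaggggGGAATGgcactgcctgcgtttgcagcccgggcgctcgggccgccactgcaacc
Hs6st2 promoter 2, chrX:51680428-51680727, minus strand: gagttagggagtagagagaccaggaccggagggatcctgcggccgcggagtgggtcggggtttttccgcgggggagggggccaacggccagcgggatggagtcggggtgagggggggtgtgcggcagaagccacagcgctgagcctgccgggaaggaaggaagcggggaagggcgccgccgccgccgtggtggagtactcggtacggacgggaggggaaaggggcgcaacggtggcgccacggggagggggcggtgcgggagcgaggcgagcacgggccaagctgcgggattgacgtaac
Hs6st1 promoter, chr1:36068150-36068449, plus strand: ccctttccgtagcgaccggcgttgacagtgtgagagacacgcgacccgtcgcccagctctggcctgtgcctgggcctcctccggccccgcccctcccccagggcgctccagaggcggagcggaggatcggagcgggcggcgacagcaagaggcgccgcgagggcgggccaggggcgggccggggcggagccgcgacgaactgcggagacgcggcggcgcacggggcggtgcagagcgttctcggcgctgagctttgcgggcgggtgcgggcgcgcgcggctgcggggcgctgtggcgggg

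The promoters differed first in base composition. Hs6st1 was 78% G or C with 7 GC boxes (GGGCGG), Hs6st2 promoters 1 and 2 were 53.7% and 71.7%, and Sulf2 promoters 1 and 2 were 58% and 62.3%, against a median of 52.7% over 32851 RefSeq promoters. GC boxes were also found in Sdc4 (4), Sdc1 (3), Hs2st1 (2), Sulf2 promoter 1 (1) and Hs6st2 promoter 2 (1), and 35.7% of all promoters hold GGGCGG. Sulf2 promoter 2 and Hs6st2 promoter 1 held none. One start each of Sulf2 and Hs6st2 held 1 TEAD match, close to the start, and Hs6st1 held none; 14.7% of all promoters hold GGAATG. The cyclic-AMP response motif TGACGTCA, in 1.79% of all promoters, and the AP-1 motif TGANTCA, in 7.81%, matched none of the 8 promoters found for 6 of the 10 genes. These are matches of letters in a short window, searched on both strands, and they show nothing about binding.

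The other sulfotransferases changed little or with 1 hairpin only. Hs2st1 (chr3:144429706-144570181), the only 2-O-sulfotransferase of the pathway, had 33.1 and 32.9 TPM with hairpin 2, 24.0 and 23.7 TPM with hairpin 1, against 31.9 and 32.7 TPM with shNT. Hairpin 1 lay below both other groups and hairpin 2 lay just above shNT. Hs2st1 fell to 73.8% of the shNT mean with hairpin 1 (log2 -0.42 ± 0.04 SE, limma adjusted p = 0.000948), and its difference of 0.03 with hairpin 2 did not pass (95% interval -0.07 to 0.13, limma adjusted p = 0.656). Ndst1, the N-deacetylase and N-sulfotransferase that acts first on the new chain, had 26.5 and 28.5 TPM with hairpin 2, 26.3 and 27.1 TPM with hairpin 1, against 24.1 and 22.7 TPM with shNT. All 4 knockdown libraries lay above both shNT libraries. Ndst1 rose with the mean of both hairpins (0.21 ± 0.05, limma adjusted p = 0.0256) and by 0.18 with hairpin 1 alone (limma adjusted p = 0.0433), while hairpin 2 missed the threshold (0.23, limma adjusted p = 0.0661). The first of these calls was lost in 9 of 17 alternatives, among them median-ratio scaling (limma adjusted p = 0.159, range over all alternatives 0.0216 to 0.712), and the hairpin 1 call in 13 of 17 (range 0.0337 to 0.942). Ndst1 also overlaps the ribosomal protein gene Rps14 in the annotation.

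Ext1 (chr15:53064038-53346159, minus strand), which with Ext2 polymerises the chain, had 31.2 and 34.5 TPM with hairpin 2, 17.6 and 18.6 TPM with hairpin 1, against 37.5 and 33.7 TPM with shNT. Hairpin 1 stood apart at 50.9% of the shNT mean, and the hairpin 2 libraries overlapped shNT at 92.3%. Ext1 fell with hairpin 1 (log2 -0.94 ± 0.08 SE, limma adjusted p = 0.000565), a call kept in all 17 alternatives, and its difference with hairpin 2 did not pass (-0.11, 95% interval -0.30 to 0.08, limma adjusted p = 0.350). The median tested gene of chromosome 15 was 0.11 higher with hairpin 1.

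The 3 core proteins differed in direction. Sdc1 (chr12:8771323-8793715), the syndecan typical of epithelium, had 127 and 131 TPM with hairpin 2, 153 and 156 TPM with hairpin 1, against 134 and 135 TPM with shNT. Hairpin 1 was the highest group, and Sdc1 rose with it by 0.20 ± 0.04 on the log2 scale (limma adjusted p = 0.0116). That call was lost under 6 of 17 alternatives, among them median-ratio scaling (limma adjusted p = 0.113, range 0.0103 to 0.970) and leaving out either hairpin 1 library (0.0622 and 0.0790). Hairpin 2 lay just below shNT, and its difference of -0.06 missed the threshold (limma adjusted p = 0.376). The median tested gene of chromosome 12 was itself 0.19 higher with hairpin 1.

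Sdc4 (chr2:164424247-164443887), a syndecan of focal adhesions, had 88.2 and 88.3 TPM with hairpin 2, 64.8 and 62.6 TPM with hairpin 1, against 92.7 and 90.5 TPM with shNT. All knockdown libraries were below shNT, hairpin 2 only slightly. Sdc4 fell with hairpin 1 (-0.52 ± 0.04, limma adjusted p = 0.000559), and its difference with hairpin 2 did not pass (-0.05, 95% interval -0.16 to 0.05, limma adjusted p = 0.421). Sdc4 shares chromosome 2 with Sulf2, and taken relative to the median gene of that chromosome its change with hairpin 1 was -0.25, with a limma adjusted p of 0.00553 (range over alternatives 0.000207 to 0.00930).

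Gpc1 (chr1:92831645-92860779), the glypican anchored by glycosylphosphatidylinositol, had 37.4 and 40.0 TPM with hairpin 2, 42.0 and 40.5 TPM with hairpin 1, against 51.3 and 47.9 TPM with shNT. Both hairpins lay below shNT, at 78.1% and 83.2% of its mean, and the hairpins lay next to each other without overlap. Gpc1 was the only one of the 7 other tested genes with a call in each hairpin: it fell by 0.35 ± 0.06 with hairpin 2 (limma adjusted p = 0.0298) and fell by 0.26 ± 0.06 with hairpin 1 (limma adjusted p = 0.0143). The hairpin 2 call was lost without any 1 of the 4 knockdown libraries (range over 17 alternatives 0.0119 to 0.173), and the hairpin 1 call without hairpin 1 replicate 1 or 2 (0.0550 and 0.0866, range 0.00461 to 0.0866).

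Beside Sulf2 and Hs6st2, then, 7 genes could be tested, and 5 of the 7 passed with the mean of both hairpins: Hs2st1, Ext1, Sdc4 and Gpc1 lower and Ndst1 higher. Of all 11549 tested genes, 12.1% were called lower and 27.3% higher in that comparison, 39.4% in all. After median-ratio scaling, which turned the transcriptome-wide split of 3149 higher and 1401 lower into 1742 higher and 2155 lower, the 7 genes held 4 lower and 0 higher. The median difference of the 7 genes was -0.20, against 0.10 over all tested genes. With the 4 hairpin libraries treated as 1 group, 0 of 7 passed in limma and 2 had an unadjusted p below the threshold of 0.05. Of all 11549 tested genes, 1 passed in that grouping and 2567 had an unadjusted p below 0.05. With hairpin 1 alone, 4 of 7 were lower and 2 higher (18.1% and 32.1% of all tested genes, 50.2% in all). With hairpin 2 alone, 1 of 7 was lower and 0 were higher in limma, and 2 had an unadjusted p below 0.05 (of all tested genes, 3% were lower and 6.62% higher, 9.63% in all). Sulf2, Hs6st2, Sdc4 and Gpc1 lay below both shNT libraries in all 4 knockdown libraries, as did 10.4% of tested genes, and Ndst1 lay above them, as did 30.3%; Sulf2 and Hs6st2 were chosen for being low.

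The hairpins were then set directly against each other. The low hairpin values of Sulf2 and Hs6st2 chose the set, so their differences are again a description, with no test: hairpin 2 was higher than hairpin 1 by 2.04 in Hs6st2 and by 1.42 in Sulf2 on the log2 scale. Of the 7 other tested genes, 4 differed: Hs2st1, Ext1 and Sdc4 were higher with hairpin 2 than with hairpin 1, and Sdc1 was lower. Among all tested genes 40.1% differed, 19.9% higher and 20.2% lower with hairpin 2. Ext1 differed by 0.82 ± 0.08 (limma adjusted p = 0.00116), Sdc4 by 0.47 ± 0.04 (limma adjusted p = 0.00108) and Hs2st1 by 0.45 ± 0.04 (limma adjusted p = 0.00110). Sdc1 differed by -0.25 ± 0.04 (limma adjusted p = 0.00657), which missed the threshold in 3 of 17 alternatives, 2 of them leaving out hairpin 1 replicate 2 or hairpin 2 replicate 1 (0.0560 and 0.0613, range 0.00287 to 0.0944). For Hs6st1 (-0.07, 95% interval -0.32 to 0.18), Ndst1 (0.04, 95% interval -0.10 to 0.19) and Gpc1 (-0.09, 95% interval -0.23 to 0.05) no difference between hairpins passed. Pthlh was at 17.8% of its shNT mean with hairpin 2 and at 6.14% with hairpin 1. It was below 1 TPM in every library and did not pass the filter, and the hairpins overlapped. The 6 tested markers of tumour epithelium differed between the hairpins, 3 higher and 3 lower with hairpin 2. The part of either in these differences was not tested.

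**Figure D2:**
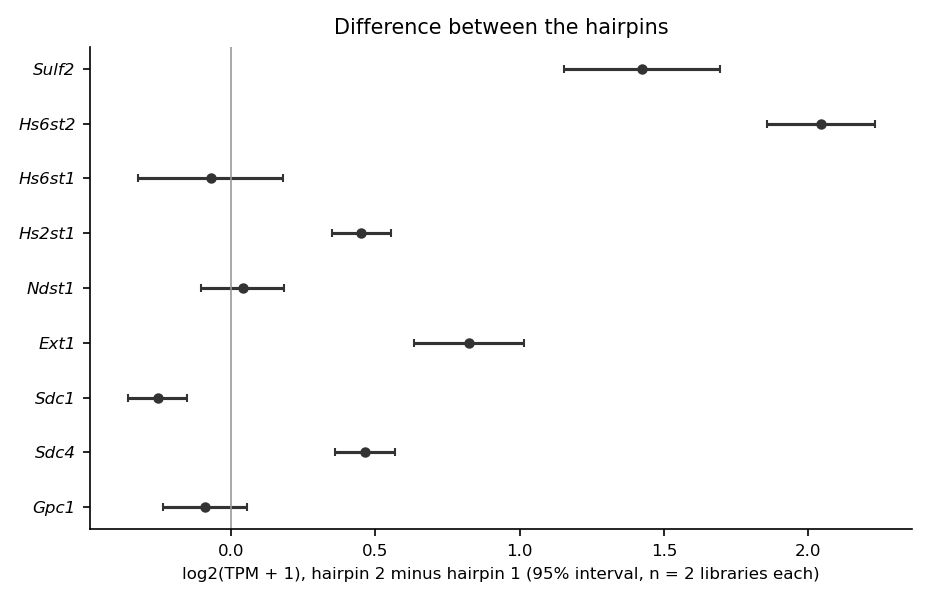
Difference of hairpin 2 minus hairpin 1 in log2(TPM + 1) for each detected gene; points are differences of group means (n = 2 libraries each) and bars are 95% intervals from the limma model. Hs6st2 (2.04) and Sulf2 (1.42) lie farthest to the right, Sdc1 (-0.25) lies left of 0, and the intervals of Hs6st1, Ndst1 and Gpc1 include 0. The values of Sulf2 and Hs6st2 chose the set, so their intervals are a description and no test.

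The make-up of the 6-O-sulfotransferases, the Ext pair and the syndecans stood apart most with hairpin 1. That of the Ndst genes and the glypicans was nearly the same in all libraries. TPM is divided by transcript length, so levels of paralogs can be set side by side as transcript numbers. Hs6st2 made up 24.9% and 25.3% of all 6-O-sulfotransferase transcripts with hairpin 2, 5.82% and 4.57% with hairpin 1, and 33.5% and 39.6% with shNT. The 3 groups were separate, and Hs6st1 held nearly all of the rest. The summed level of the family was 41.1 and 42.4 TPM with hairpin 2, 32.9 and 36.4 TPM with hairpin 1, against 47.7 and 43.4 TPM with shNT, so the sum differed far less between groups than Hs6st2 did. Ext1 made up 46.3% and 50.2% of the summed Ext1 and Ext2 level with hairpin 2, 32.1% and 32.2% with hairpin 1, and 52.0% and 49.4% with shNT, so Ext2 outnumbered Ext1 with hairpin 1, while both were near equal in the other libraries. Ndst1 held 72.3% to 74.9% of the Ndst transcripts in every library.

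Among the syndecans, Sdc1 made up 56.1% and 56.5% with hairpin 2, 67.2% and 68.6% with hairpin 1, and 54.4% and 55.1% with shNT. Sdc4 made up 38.9% and 37.9% with hairpin 2, 28.4% and 27.6% with hairpin 1, and 37.6% and 37.0% with shNT. Hairpin 1 thus stood apart in the mix of syndecans, while their sum was 227 and 233 TPM with hairpin 2, 228 and 227 TPM with hairpin 1, against 247 and 245 TPM with shNT. Gpc1 was practically the only glypican, with at least 99.6% of glypican transcripts in each library. These shares carry no test of their own.

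**Figure D3:**
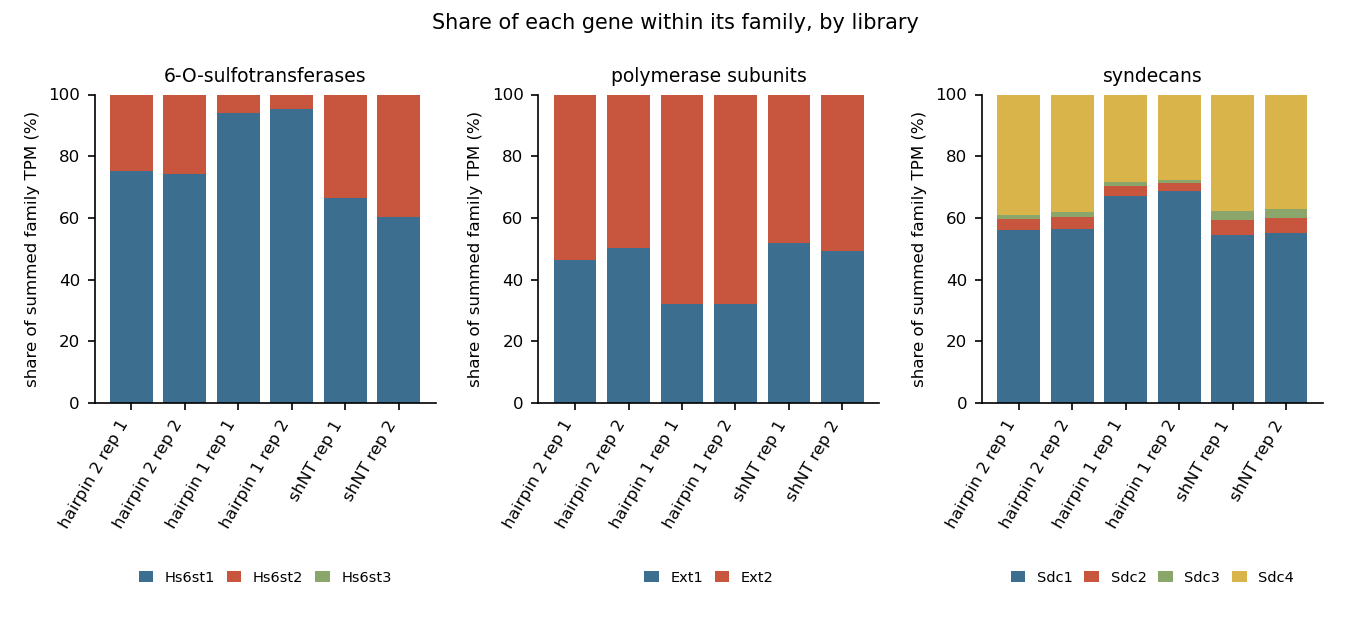
Stacked bars of the share of each gene in the summed TPM of its family, in percent, for 6-O-sulfotransferases, polymerase subunits and syndecans; each bar is 1 library, with hairpin 2 left, hairpin 1 in the middle and shNT right. The Hs6st2 share is 4.57% to 5.82% with hairpin 1 and 24.9% to 39.6% in the other libraries, and the Ext1 and Sdc4 shares are lowest with hairpin 1.

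The partners of these genes were read from lists of the pathway by role, 56 genes in all, of which 38 passed the filter. With the mean of both hairpins 15 rose and 2 fell, against 27.3% and 12.1% of all tested genes, with a median difference of 0.14 against 0.10. The balance depended on scaling, with 8 higher and 6 lower after median-ratio scaling and 4 higher and 4 lower of 41 tested without small-RNA entries. Of all 11549 tested genes, 1742 were higher and 2155 lower after median-ratio scaling. Without small-RNA entries, 973 of all 11615 were higher and 1954 lower. With hairpin 1, 19 rose and 4 fell (32.1% and 18.1% of all tested genes), and with hairpin 2, 1 rose and 1 fell (6.62% and 3% of all tested genes). The 15 and the 19 rises each include Hs3st5, which passed the filter only through its hairpin 1 libraries and so had to differ.

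Among partners of the sulfation step, Hs3st enzymes carry out 3-O-sulfation, the last and rarest modification. Hs3st1 had 59.0 and 57.9 TPM with hairpin 2, 83.2 and 81.8 TPM with hairpin 1, against 54.7 and 60.1 TPM with shNT. Hairpin 1 was well above the rest, and Hs3st1 rose with it by 0.52 (limma adjusted p = 0.00132) but with hairpin 2 the difference of 0.03 did not pass (limma adjusted p = 0.759). Hs3st5 was at 0 and 0.0329 TPM with hairpin 2, 1.55 and 1.70 TPM with hairpin 1, and listed at 0 with shNT. It passed the filter only through its hairpin 1 libraries and so had to differ, and no test is given for it. Hs3st3b1 had 1.06 and 0.915 TPM with hairpin 2, 0.444 and 0.400 TPM with hairpin 1, against 1.07 and 1.08 TPM with shNT, and fell by 0.54 with hairpin 1 (limma adjusted p = 0.0123). Its levels lay next to the filter, and it missed the threshold when hairpin 1 replicate 2 was left out (limma adjusted p = 0.0545, range 0.00204 to 0.0545). The N-sulfotransferase Ndst2 (0.15, limma adjusted p = 0.108) and the C5-epimerase Glce (-0.17, limma adjusted p = 0.113) did not pass with the mean of both hairpins. Of the 3 tested partners of the polymerase, Ext2 (0.08, limma adjusted p = 0.178) and Extl3 (0.01, limma adjusted p = 0.826) did not pass, and Extl2 rose with hairpin 1 (0.21, limma adjusted p = 0.0368), a call lost in 10 of 17 alternatives.

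Of 5 other core proteins that passed the filter, 2 fell with the mean of both hairpins, the syndecans Sdc3 and Sdc2 (12.1% of all tested genes were lower). Sdc3 had 3.14 and 3.80 TPM with hairpin 2, 2.61 and 2.64 TPM with hairpin 1, against 7.41 and 7.40 TPM with shNT. All knockdown libraries were close to each other and far below shNT, and Sdc3 fell by 0.91 with hairpin 2 (limma adjusted p = 0.0124, a call lost without any 1 of the 4 knockdown libraries, range 0.00140 to 0.0901) and fell by 1.21 with hairpin 1 (limma adjusted p = 0.000458). Sdc2 had 8.05 and 9.24 TPM with hairpin 2, 7.26 and 5.99 TPM with hairpin 1, against 12.3 and 11.9 TPM with shNT. It fell with hairpin 1 (-0.78, limma adjusted p = 0.00247), and hairpin 2 missed the threshold (-0.44, limma adjusted p = 0.0551) but passed it in 5 of 17 alternatives (range 0.0343 to 0.229). The basement membrane proteoglycan agrin, Agrn, had 82.7 and 82.3 TPM with hairpin 2, 59.5 and 59.7 TPM with hairpin 1, against 73.4 and 72.3 TPM with shNT, so the hairpins lay on opposite sides of shNT. It rose with hairpin 2 (0.18, limma adjusted p = 0.0481, a call lost in 11 of 17 alternatives) and fell with hairpin 1 (-0.29, limma adjusted p = 0.00259). Perlecan, Hspg2 (0.15, limma adjusted p = 0.140), and collagen XVIII, Col18a1 (-0.07, limma adjusted p = 0.300), did not pass with the mean of both hairpins. Against shNT, Hspg2 differed by 0.36 with hairpin 2 and -0.06 with hairpin 1, and Col18a1 by -0.26 and 0.12. None of these passed. Hairpin 2 differed from hairpin 1 in Hspg2 (0.42, limma adjusted p = 0.0116) and in Col18a1 (-0.38, limma adjusted p = 0.00571), as in 40.1% of all tested genes.

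Of 9 genes that supply sulfate and sugar nucleotides, 8 rose with hairpin 1 (32.1% of all tested genes were higher) and Uxs1 did not, while with hairpin 2, 0 passed in limma and 2 had an unadjusted p below 0.05. With hairpin 1, 5 of the 9 rose after median-ratio scaling, 4 under quantile normalization and 4 without small-RNA entries. Of all tested genes, 2623 of 11549, 2620 of 11549 and 1716 of 11615 rose with hairpin 1 under these alternatives. The sulfate transporter Slc26a2 had 31.0 and 33.2 TPM with hairpin 2, 77.1 and 71.5 TPM with hairpin 1, against 29.6 and 28.4 TPM with shNT. Hairpin 1 stood far above the rest (1.33, limma adjusted p = 0.000122), and hairpin 2 did not pass (0.14, limma adjusted p = 0.173). Ugp2, which makes UDP-glucose, rose with hairpin 1 by 0.75 (limma adjusted p = 0.000501), and Papss2, which makes the sulfate donor PAPS, by 0.65 (limma adjusted p = 0.000688). Heparanase, Hpse, which cuts the chain, had 4.37 and 4.61 TPM with hairpin 2, 9.52 and 9.79 TPM with hairpin 1, against 4.53 and 4.15 TPM with shNT. Hpse rose with hairpin 1 (1.00, limma adjusted p = 0.000357) and overlapped shNT with hairpin 2 (0.04, limma adjusted p = 0.721). Of 6 tested lysosomal enzymes of heparan sulfate breakdown, 4 rose with the mean of both hairpins, led by Ids (0.39, limma adjusted p = 0.00459), Gusb (0.31, limma adjusted p = 0.0179) and Hgsnat (0.28, limma adjusted p = 0.0210), against 27.3% of all tested genes. After median-ratio scaling 1 of the 6 rose, and without small-RNA entries 0 of 8 tested rose in limma, where 1 had an unadjusted p below 0.05. Of all tested genes, 1742 of 11549 and 973 of 11615 rose under these alternatives. The Gusb call was lost in 8 and the Hgsnat call in 9 of 17 alternatives. With hairpin 1 alone, 4 of the 6 lysosomal enzymes rose (32.1% of all tested genes). With hairpin 2 alone, 0 of the 6 passed in limma and 2 had an unadjusted p below 0.05 (9.63% of all tested genes passed).

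Among the 7 tested enzymes of the linker, 3 rose with the mean of both hairpins, Xylt2, which adds the first sugar (0.35, limma adjusted p = 0.0272), B3gat3, which adds the last (0.31, limma adjusted p = 0.0275), and the kinase Fam20b (0.17, limma adjusted p = 0.0460), beside 27.3% of all tested genes. After median-ratio scaling 0 of the 7 rose in limma, 1 fell and 3 had an unadjusted p below 0.05. Of all 11549 tested genes, 1742 rose and 2155 fell after that scaling. Sumf2, a relative of the sulfatase-activating enzyme Sumf1, rose by 0.35 (limma adjusted p = 0.0340), a call lost in 11 of 17 alternatives, and Sumf1 did not pass (-0.04, limma adjusted p = 0.548). With hairpin 1 alone, 3 of the 7 linker enzymes rose (32.1% of all tested genes). With hairpin 2 alone, 0 of the 7 passed in limma and 3 had an unadjusted p below 0.05 in either direction (9.63% of all tested genes passed).

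**Figure D4:**
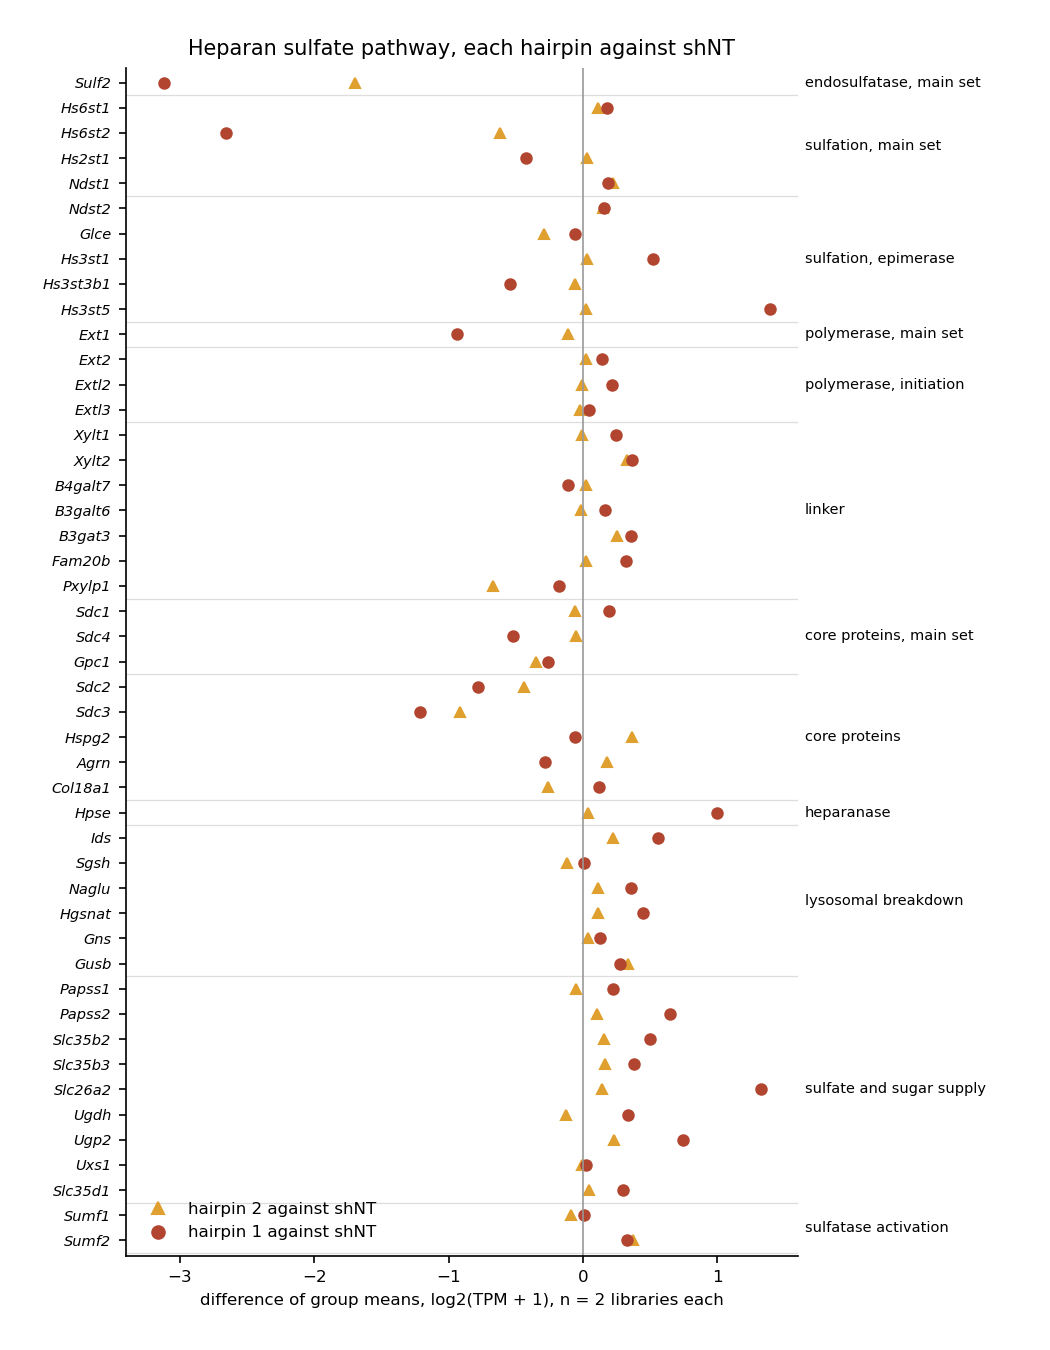
Log2(TPM + 1) difference from shNT of every tested gene of the pathway, grouped by role; triangles are hairpin 2 and circles are hairpin 1, each a difference of group means (n = 2 libraries each), drawn whether or not it passed a test. Circles spread to both sides, Slc26a2 at 1.33 and Ext1 at -0.94 among them, while most triangles lie near 0.

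Chondroitin sulfate grows on the same linker and draws on the same supply. Of 9 tested chondroitin genes, 3 rose and 4 fell with the mean of both hairpins (27.3% and 12.1% of all tested genes), and 0 rose and 4 fell in limma without small-RNA entries, where 5 had an unadjusted p below 0.05. Without these entries, 973 of all 11615 tested genes rose and 1954 fell. The 4-O-sulfotransferase Chst11 had 2.47 and 2.36 TPM with hairpin 2, 1.02 and 0.968 TPM with hairpin 1, against 2.66 and 2.78 TPM with shNT, and fell by 0.90 with hairpin 1 (limma adjusted p = 0.000986). The polymerase Chsy1 fell (-0.34, limma adjusted p = 0.00864) and Csgalnact2, which commits a linker to chondroitin, rose (0.23, limma adjusted p = 0.00966) with the mean of both hairpins, a rise that missed the threshold in 4 of 17 alternatives, median-ratio scaling among them. Among genes of fibroblast growth factor signalling, which uses heparan sulfate as a co-receptor, 5 of 11 passed the filter, and 1 rose and 1 fell, near the 27.3% and 12.1% of all tested genes. Fgf1 had 15.2 and 14.2 TPM with hairpin 2, 22.8 and 20.3 TPM with hairpin 1, against 12.4 and 12.8 TPM with shNT, and rose with the mean of both hairpins (0.47, limma adjusted p = 0.00473). Fgfbp1, a secreted protein that binds fibroblast growth factors, had 3.73 and 3.37 TPM with hairpin 2, 0.294 and 0.400 TPM with hairpin 1, against 3.07 and 2.74 TPM with shNT. It fell with hairpin 1 (-1.54, limma adjusted p = 0.000351), and hairpin 2 did not pass (0.22, limma adjusted p = 0.210).

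The genes most like Sulf2 and Hs6st2 over the 6 libraries were found by Euclidean distance between log2(TPM + 1) profiles, each centred on its own mean. Nearest to Sulf2 were Dbn1 (distance 0.534), Mmp13 (0.723), Fermt2 (0.727), Thbs1 (1.00) and Hs6st2 itself (1.12). Dbn1 averaged 12.3 TPM with hairpin 2, 3.67 TPM with hairpin 1 and 30.4 TPM with shNT. Nearest to Hs6st2 were Nes (distance 0.237), Aif1l (0.338), Trf (0.366), Serpinh1 (0.422) and Timp3 (0.512). Nes averaged 11.9 TPM with hairpin 2, 2.02 TPM with hairpin 1 and 16.2 TPM with shNT. These genes were picked for a like profile, so a shared order of groups follows from the choice. Hs6st2 is near Sulf2 in part because both were chosen for low values in the knockdown cells. The distances describe these 6 libraries and have no test.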

How the data were processed

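The authors deposited one table of TPM per gene for the 6 libraries. Per the submitters' processing notes, Salmon, DESeq2 and R 3.5 were used with the build mm10; the notes give no role, order or Salmon version. Per the labels' protocols, the RNA kit was Qiagen RNeasy, and Novogene prepared the libraries. Groups and replicate numbers came from the sample titles.

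TPM was used as deposited. Genes with at least 1 TPM in at least 2 libraries were kept, 11549 of 24493. Values were tested as log2(TPM + 1) with limma 3.58.1 in R 4.3.3, with 3 group means over all 6 libraries, a variance prior following mean expression, and Benjamini-Hochberg adjustment over all tested genes at 0.05. A fold change on this scale understates the change of low genes. TPM is relative, and 1 small-RNA entry, Mir6236, took 21.4% to 23.4% of it with hairpin 2, 19.7% to 20.4% with hairpin 1 and 24.3% to 34.1% with shNT, so every other gene moves with it. Comparisons were each hairpin, and the mean of both, against shNT, and hairpin 2 against hairpin 1. The genes, gene lists and alternatives were chosen with earlier results of these data known. Named genes were the 10 pathway genes; tested genes of the polymerase, sulfation and core lists; up to 3 genes per other list with the smallest p among those past the threshold with the mean of both hairpins; and the 5 nearest profiles of Sulf2 and of Hs6st2. Positions came from GENCODE M21, of the build mm10, and promoters from RefSeq GRCm38.p6. The model was tested on simulated data.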

Additional observations from a re-analysis of the deposited data

Results flagged for a closer look

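The hairpins differed from each other in 4 of the 7 genes tested beside Sulf2 and Hs6st2, by the limma test of hairpin 2 minus hairpin 1 itself. The difference was 0.82 for Ext1, 0.47 for Sdc4, 0.45 for Hs2st1 and -0.25 for Sdc1, on the log2(TPM + 1) scale. It was 2.04 for Hs6st2 and 1.42 for Sulf2, whose hairpin values chose the set, so these 2 are a description only. The same contrast passed in 40.1% of all tested genes. Groups of 2 libraries were too small to look for single outlying libraries.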

How the results depend on the processing

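Each comparison was repeated under 17 alternatives; 1 of them, centring on the chromosome median, was chosen after seeing the data. With the mean of both hairpins, 5 of the 7 genes tested beside Sulf2 and Hs6st2 passed, 4 to 6 when any 1 library was left out, and 0 with the hairpins as 1 group (limma; 2 at an unadjusted p below 0.05); of the other pathway genes 17 passed, 8 without small-RNA entries, 0 with the hairpins as 1 group and 10 to 17 when 1 library was left out. With hairpin 1, 6 of 7 passed, 3 to 7 when 1 library was left out, the low value without either hairpin 1 library; of the other pathway genes 23 passed, 15 under quantile normalization, 12 without small-RNA entries and 14 to 21 when 1 library was left out. With hairpin 2, 1 of 7 passed, 0 with the 2 compared groups alone and 0 to 1 when 1 library was left out; of the other pathway genes 2 passed, 5 with a mean TPM of at least 5, 4 under median-ratio scaling, 1 under a constant variance prior, 0 with the compared groups alone, and 0 to 9 when 1 library was left out, with 9 without shNT replicate 2. Between hairpins, 3 of the 7 were higher and 1 was lower with hairpin 2. The lower gene, Sdc1, missed the threshold in 3 of 17 alternatives. The cause was not tested. The main counts of 17 and 23 other pathway genes each include Hs3st5, which passed the filter only through its hairpin 1 libraries and so had to differ.

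Among the 10 genes, signs turned only in differences that did not pass in the main fit. For the mean of both hairpins these were Hs6st1 (-0.0070 without small-RNA entries) and Sdc1 (-0.030 under median-ratio scaling, -0.049 under quantile normalization, -0.085 without small-RNA entries, -0.085 under chromosome centring). For hairpin 2 they were Hs6st1 (-0.020 without small-RNA entries, -0.023 to 0.24 when 1 library was left out) and Hs2st1 (-0.064 under median-ratio scaling, -0.061 under quantile normalization, -0.10 without small-RNA entries, -0.022 under chromosome centring). Between hairpins, when 1 library was left out, they were Hs6st1 (-0.15 to 0.011) and Ndst1 (-0.0098 to 0.092).

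Over all tested genes, 4550 passed with the mean of both hairpins, 2927 without small-RNA entries, 2727 without hairpin 2 replicate 2 and 1 with the hairpins as 1 group. With hairpin 1, 5798 passed, and 3749 without its replicate 1. With hairpin 2, 1112 passed, 6 without its replicate 1 and 2653 without shNT replicate 2. Between hairpins 4626 passed, and 2374 with 1 library left out. Same-numbered libraries did not deviate together (r = 0.0211 for hairpin 1 and shNT, 0.0152 for hairpin 2 and shNT, -0.0439 for the hairpins). No label says whether they were handled as pairs. With a replicate block, the counts were 5 and 16 for the mean of both hairpins, 5 and 20 for hairpin 1, and 0 and 1 for hairpin 2. Depth is unknown, and 2 libraries a group limit the precision.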

Other observations

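Sulf2 and Hs6st2 were chosen for their low values, so smaller falls in the genes around them were nearly fixed by that choice. Within 500000 bases of Sulf2, Hs6st2 and Ext1, a window chosen with results known, 8 other genes were tested, and none was lower than shNT by as much as the gene it neighbours. That did not hold at Sdc4 and Gpc1: Ywhab, near Sdc4, differed by -0.02 with hairpin 2 and -0.56 with hairpin 1, and 2310007B03Rik, near Gpc1, by -0.54 with hairpin 2 and -2.27 with hairpin 1. Around Sulf2, the differences from shNT with hairpin 2 and hairpin 1 were -0.41 and -0.17 for Eya2, 0.04 and -0.21 for Zmynd8, 0.17 and 0.02 for Ncoa3, and -0.10 and 1.08 for Prex1 (log2). Around Hs6st2 they were 0.26 and 0.78 for Frmd7, -0.04 and 0.16 for Rap2c, and 0.47 and 1.35 for Mbnl3. Med30, near Ext1, differed by 0.07 with hairpin 2 and 0.01 with hairpin 1.

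Krt19, a keratin of duct epithelium, had 428 and 444 TPM with hairpin 2, 990 and 988 TPM with hairpin 1, against 435 and 418 TPM with shNT, highest with hairpin 1, as Slc26a2 and Hpse were. It is 1 of the 7 tumour epithelium markers and was chosen after its values were seen. With hairpin 1, 3 of the 6 tested markers rose and 3 fell, the falls being Krt18 (-0.43), Cdh1 (-0.34) and Krt7 (-0.30); their part in the results was not tested.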
